A study of Mus musculus with 3 samples.

Results

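Macrophages from the spleens of mice carrying leukemia cells with a high level of sM-CSF were compared with macrophages from mice carrying control leukemia cells without it. The comparison rests on 2 of the 3 RNA sequencing libraries of the study, 1 from each side, joined on the NCBI gene identifier with genes missing from a table taken as 0. In both groups the recipients were C57BL/6J mice aged 6 to 8 weeks that had received 800000 leukemia cells marked with GFP and BFP, without irradiation. The labels give survival with this acute myeloid leukemia as 30 to 40 days, and the mice used here were taken before that. Spleens were taken on day 18, and F4/80-positive cells with intermediate CD115 and no GR1 were sorted from them. The library outside the comparison came from mice with leukemia high in mM-CSF, and its values stand beside the others. The labels leave unexplained the prefixes s and m, the oncogene behind the leukemia, the way M-CSF was raised, whether cells of several mice were pooled, and whether the sort also left out cells with GFP.

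M-CSF is encoded by Csf1, and most macrophages and many monocytes depend on it. It binds the receptor tyrosine kinase CD115, the product of Csf1r, and ligand binding drives uptake and degradation of the receptor. In the spleen, red pulp macrophages recycle iron from old red blood cells, while non-classical monocytes patrol vessels, depend on the nuclear receptor Nr4a1 and need CD115 signalling for their survival.

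The control library held 9.09e+06 and the sM-CSF library 8.94e+06 estimated read counts. Values are FPKM, that is fragments scaled to the length of the gene and to the mapped fragments of the library. Differences are sM-CSF minus control on the log2(FPKM + 1) scale, which understates the change of low genes. Genes with at least 5 FPKM in the higher library and a length of at least 300 bases were compared, 9551 in all. A gene was called higher or lower at a difference of 1 or more in size, which is 2-fold on that scale. With 1 library a side there is no replicate spread and no test between the conditions, and every value describes these libraries only. Ratios are given as shares of counts with exact conditional (Clopper-Pearson) 95% intervals that cover counting error only. By this rule 35 genes were higher (0.366% of those compared) and 137 were lower (1.43%), 1.8% in either direction, and the median difference of all compared genes was 0.01. Rescaling to TPM moved that median to -0.13. In the comparison of mM-CSF with the same control library, the rule called 23.6% of genes, 8.62% higher and 15% lower. Since the control is shared, mM-CSF values are given side by side only. A count that is not whole can hold reads divided with another gene, which makes the values of the following called genes uncertain: Cx3cr1, Ceacam1, Itgam, Lyz2, the Cd300ld genes, Cd3d, Cd8b1, Hspa1a, Hspa1b, Il12b, Ear2, Epb42, Rhag, Ms4a4a, Lef1, Ly6c1, Lilrb4a, Sap25, Nyx, Cpne8, Myh10 and Pcsk1n. The edge of the rule was crowded: Cd3d (1.01), Sit1 (1.01) and Cd3e (1.02) lay just above it and Mapk11 (0.999), 2010001A14Rik (0.99) and Carmil2 (0.98) just below. On the lower side Myh10 (-1.004), Ear2 (-1.01) and Smpdl3a (-1.01) were just past it and Cldn13 (-0.997), Tnpo1 (-0.995) and Atp2b4 (-0.99) just short.

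**Figure D1:**
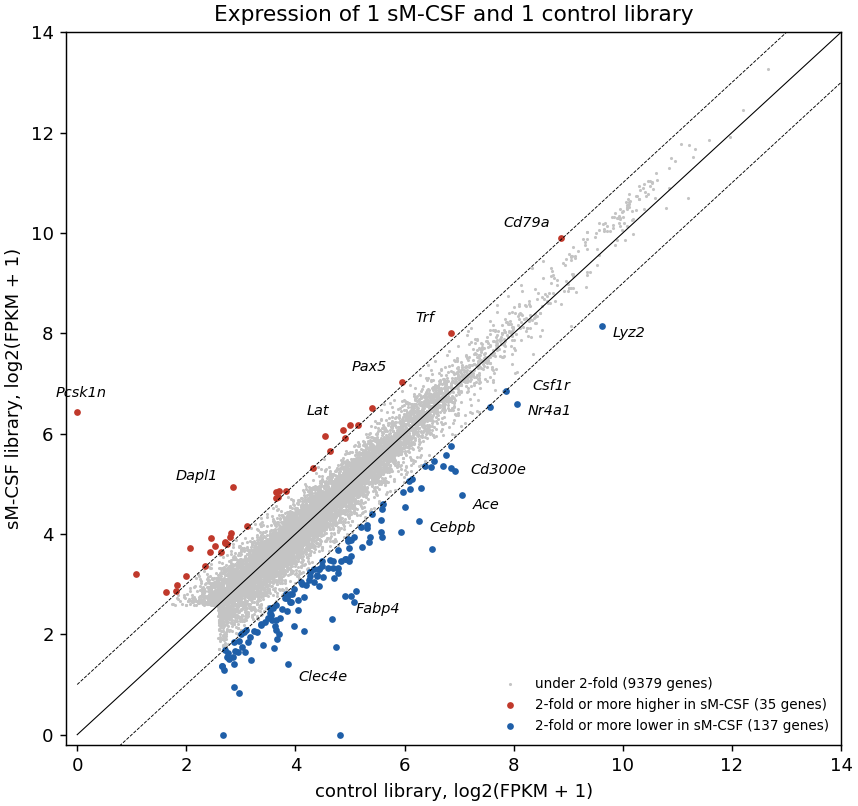
Level of each compared gene in the control library (x axis) and the sM-CSF library (y axis), both as log2(FPKM + 1), with 1 point a gene and dashed lines at a 2-fold difference. The 137 lower genes (blue) outnumber the 35 higher genes (red), and Pcsk1n, at 0 in the control, stands alone on the left.

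The genes behind the sort were expressed on both sides. Csf1r (NCBI gene 12978) stood at 268 FPKM in control macrophages, 149 with sM-CSF and 222 with mM-CSF, so the sM-CSF library was the lowest of the 3. Its difference of -0.84 was short of 2-fold, and its share of counts was 1.79-fold lower (95% interval 1.73 to 1.85). Adgre1, which encodes F4/80, was at 101, 65.5 and 67.5 FPKM in the same order (difference -0.61), and the GR1 gene Ly6g at 0.25, 0.36 and 1.45. Csf1 itself was low in the sorted cells, at 2.44, 2.32 and 1.45 FPKM. The labels tie the high M-CSF level to the leukemia, and whether leukemia cells were left out of the sort is not known. The Csf1 level in the sorted cells therefore cannot check the labels. Genes of other cell types were abundant in both libraries, and the sums of their marker lists are given with the groups they move with.

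Non-classical monocyte genes were lower in the sM-CSF library. Of the 16 genes of this list, all compared, 10 were called lower and 0 higher, where 1.43% of all compared genes were lower. The list median was -1.27. This list, like the others, was chosen with earlier results of these data known, so its counts are a description only. Ace (gene 11421), the angiotensin-converting enzyme gene that marks these monocytes, stood at 132 FPKM in control macrophages, 26.5 with sM-CSF and 4.09 with mM-CSF. The sM-CSF level thus lay between the others, and its share of counts was 5.49-fold below the control (5.14 to 5.86). Shares of counts are not scaled to gene length, and the FPKM values of Ace in control and sM-CSF were less than 5.49-fold apart. Nr4a1 (gene 15370), the nuclear receptor these cells require, was at 266, 94.8 and 21.7 FPKM, 2.80-fold lower in sM-CSF than in control (2.66 to 2.94). Cx3cr1, the fractalkine receptor gene, was at 46.8, 14.4 and 8.70 FPKM. These 3 genes had the same order, with the control highest and the mM-CSF library lowest.

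A second set of genes in this list had its lowest value in the sM-CSF library. Fabp4 (gene 11770), a fatty acid carrier gene, stood at 28.9 FPKM in control macrophages, 5.76 with sM-CSF and 16.5 with mM-CSF, 5.01-fold lower in sM-CSF than in control (3.42 to 7.57). Cd300e, an activating receptor gene of monocytes, was at 121, 37.3 and 54.03 FPKM. Fcgr4, an Fc receptor gene for IgG, was at 114, 38.8 and 75.9 FPKM, 2.92-fold lower in sM-CSF than in control (2.62 to 3.27). For these genes the mM-CSF value lay between those of control and sM-CSF. The other genes called lower were Ceacam1 (-1.47), an adhesion molecule gene, the phosphatase gene Dusp16 (-1.38), the adhesion G protein-coupled receptor gene Adgre4 (-1.15) and Itgal (-1.03), which encodes the alpha chain of LFA-1. With the trend on gene length described below removed, Itgal (-0.87) fell short and 9 genes of the list were lower. Short of 2-fold were Spn (-0.89), Cd36 (-0.88), Eno3 (-0.74), Treml4 (-0.64) and Pou2f2 (-0.26), while Klf2 had a difference of 0.37. The list held 15 negative and 1 positive differences under each of the 5 scalings tried, against 48.0% negative among all compared genes. In bulk samples, fewer cells of a type and less RNA of its genes per cell cannot be told apart.

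**Figure D2:**
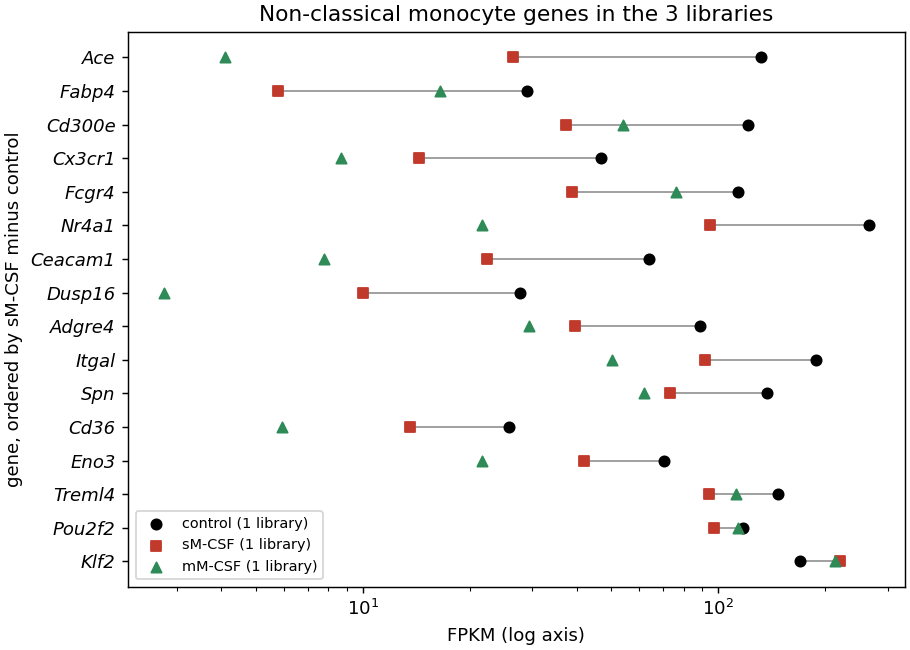
FPKM (log x axis) of the 16 non-classical monocyte genes (y axis, ordered by difference) in the control, sM-CSF and mM-CSF libraries, with 1 library per symbol and a line joining control and sM-CSF. The sM-CSF square lies left of the control circle for every gene except Klf2, while the mM-CSF triangle lies left of the square for some genes (Ace, Nr4a1, Cx3cr1) and right of it for others (Fabp4, Cd300e, Fcgr4).

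Promoters of this list are shown because its genes were lower together, and the genes shown and the motifs were chosen after the values were seen. They were taken from RefSeq on build GRCm38.p6, 250 bases before to 50 bases after the annotated start, and were searched on both strands for letters bound by factors of monocytes: AAAGGTCA for NR4A receptors, TTGCNNAA for C/EBP factors, GAGGAA for PU.1 and CACCC for KLF factors. No motif contains another. Fabp4 and Itgal had no entry. Windows were found for 8 of the 10 lower genes, 9 windows in all. The Ace window is chr11:105967698-105967997 (plus strand), that of Cx3cr1 chr9:120068247-120068546 (minus strand), that of Cd300e chr11:115061990-115062289 (minus strand) and that of Nr4a1 chr15:101266596-101266895 (plus strand). Capitals mark the matches.
Ace: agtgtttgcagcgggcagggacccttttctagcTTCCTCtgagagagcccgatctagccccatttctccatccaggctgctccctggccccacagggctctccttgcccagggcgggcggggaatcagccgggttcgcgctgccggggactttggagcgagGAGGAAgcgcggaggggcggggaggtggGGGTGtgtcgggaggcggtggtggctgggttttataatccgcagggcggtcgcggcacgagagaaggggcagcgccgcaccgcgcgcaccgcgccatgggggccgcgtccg
Cx3cr1: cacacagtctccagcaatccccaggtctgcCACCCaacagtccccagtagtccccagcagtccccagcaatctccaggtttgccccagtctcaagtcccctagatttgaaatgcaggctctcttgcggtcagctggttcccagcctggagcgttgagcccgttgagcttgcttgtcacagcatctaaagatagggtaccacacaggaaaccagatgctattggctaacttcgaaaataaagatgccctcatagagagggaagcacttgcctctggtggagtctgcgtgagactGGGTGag
Cd300e: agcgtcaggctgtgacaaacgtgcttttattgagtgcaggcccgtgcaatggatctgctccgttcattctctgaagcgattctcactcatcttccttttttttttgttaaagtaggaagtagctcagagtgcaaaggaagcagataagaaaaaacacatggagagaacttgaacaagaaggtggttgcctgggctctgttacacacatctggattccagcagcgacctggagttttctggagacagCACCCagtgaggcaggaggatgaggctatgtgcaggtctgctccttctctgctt
Nr4a1: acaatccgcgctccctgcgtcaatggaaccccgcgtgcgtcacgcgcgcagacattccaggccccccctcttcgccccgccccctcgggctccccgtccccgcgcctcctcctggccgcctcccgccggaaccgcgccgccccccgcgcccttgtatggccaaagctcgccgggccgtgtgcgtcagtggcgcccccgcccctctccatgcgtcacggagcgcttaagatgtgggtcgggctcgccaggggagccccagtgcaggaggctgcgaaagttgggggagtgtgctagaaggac
The Ace window held 2 matches to GAGGAA and 1 to CACCC, the Cx3cr1 window 2 to CACCC, the Cd300e window 1, and the Nr4a1 window held none of the motifs. AAAGGTCA was in 0 of the 9 windows of lower non-classical monocyte genes, and in 1.51% of all promoter windows. TTGCNNAA was in 1 of them and in 10.8% of all windows. GAGGAA was in 4, and in 28.3% of all windows, 27.7% of those of compared genes and 30.2% of those of all lower genes. CACCC was in 7, against 57.5%, 62.2% and 70.5% in the same order. For AAAGGTCA and TTGCNNAA, the shares were 1.08% and 8.57% in windows of compared genes and 0.775% and 12.4% in those of all lower genes. These counts describe letters in short windows and no binding.

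Other receptor families of monocytes were lower in part. Of 12 CD300 receptor genes, which encode paired activating and inhibitory receptors, 8 were compared and 5 called lower (median -1.49). The share called lower among all compared genes was 1.43%. Cd300ld3 stood at 90.1 FPKM in control macrophages, 12.1 with sM-CSF and 3.11 with mM-CSF, and Cd300ld5 at 25.8, 2.38 and 0. The Cd300ld genes are alike in sequence and their estimated counts were not whole, so the split between them is uncertain. Cd300lb, whose count was whole, was at 19.3, 7.22 and 5.25 FPKM, while the inhibitory receptor gene Cd300lf stood at 37.8 FPKM in control macrophages and 41.7 with sM-CSF. The family therefore ranged from -2.98 to 0.14.

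Among 12 genes of Fc gamma receptors and their signalling, Fcgr4 was the 1 gene called lower, and the median was -0.08. For this list and those next to it, the share called lower among all compared genes was 1.43%. The inhibitory receptor gene Fcgr2b stood at 47.5 FPKM in control macrophages and 45.8 with sM-CSF, Fcgr3 at 59.1 and 55.3, and the high-affinity receptor gene Fcgr1 at 9.71 and 12.2. Of 13 compared myeloid C-type lectin genes 2 were lower (median -0.24). Clec4e, which encodes the receptor Mincle for microbial glycolipids, stood at 13.5 FPKM in control macrophages, 1.64 with sM-CSF and 0.55 with mM-CSF, 8.25-fold lower in sM-CSF than in control (5.85 to 11.9). Clec4a3 was at 103, 39.8 and 62.95 FPKM. Clec4n, which encodes Dectin-2, differed by -0.96, and the dendritic cell lectin gene Clec4a4 by 0.06. Of 15 compared integrin and ligand genes, Itgal and Itgam were the 2 called lower, though neither passed once the length trend was subtracted, and the lymphocyte integrin gene Itgb7 differed by 0.57.

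Few classical monocyte genes were past 2-fold, where 1.43% of all compared genes were lower. Of 14 compared genes 2 were lower, Clec4e and the haptoglobin gene Hp (from 19.1 to 8.92 FPKM), and the median was -0.02. It was -0.38 among genes of at least 1000 bases, -0.16 with the trend on gene length described below removed, and -0.16 in TPM. Ccr2, the chemokine receptor gene that marks classical monocytes, stood at 12.7 FPKM in control macrophages and 12.6 with sM-CSF. Ly6c2, their surface antigen gene, was at 70.9 and 107, and Plac8 at 250.2 and 245. Whether this list and the non-classical list differ was not tested.

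Most macrophage identity genes were below control, few of them past 2-fold. All 20 were compared, 4 were lower (1.43% among all compared genes) and 0 higher (0.366%), and the median was -0.29. Of their differences 15 were negative and 5 positive, against 48.0% negative among all compared genes. In TPM 18 were negative. Cebpb (gene 12608), a transcription factor gene of monocytes and macrophages, stood at 75.8 FPKM in control macrophages, 18.1 with sM-CSF and 21.6 with mM-CSF, 4.18-fold lower in sM-CSF than in control (3.63 to 4.83). Lyz2 (gene 17105), the myeloid lysozyme gene, was at 784, 282 and 205 FPKM, and its neighbour and close relative Lyz1 at 30.2, 14.9 and 12.9, so reads may be divided between them. The CD11b gene Itgam had 41.3, 19.96 and 5.76 FPKM. The transcriptional repressor gene Zeb2 was at 24.6, 10.1 and 4.76 FPKM. Each of these was low in both M-CSF libraries, though with the trend on gene length described below removed, Itgam (-0.89) and Zeb2 (-0.88) fell short of 2-fold. The list also held genes at nearly equal levels: the cysteine protease gene Ctss stood at 506 FPKM in control macrophages and 507 with sM-CSF, Cd68 at 245 and 214, and the transcription factor gene Irf8 at 132 and 142.

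Of 22 compared myeloid transcription factor genes, 4 were lower (median -0.34), against 1.43% of all compared genes. Beside Cebpb, Nr4a1 and Zeb2 this was Klf4, a monocyte differentiation factor gene, at 39.5 FPKM in control macrophages, 13.3 with sM-CSF and 3.89 with mM-CSF. Bcl6 (-0.84), Bhlhe40 (-0.80) and Klf6 (-0.59) were short of the rule. Spi1, which encodes the myeloid master factor PU.1, was at 194 and 156 FPKM, and Maf at 25.9 and 27.9 in control and sM-CSF.

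No gene of the colony-stimulating factors and their receptors was called, and 8 of 11 were compared (median -0.27). Csf1r had the most negative difference of these. The G-CSF receptor gene Csf3r stood at 26.7 FPKM in control macrophages and 15.8 with sM-CSF (-0.72). The GM-CSF receptor gene Csf2ra was at 117 and 104, against 42.2 in the mM-CSF library, and its partner Csf2rb at 54.9 and 41.9, against 13.1. Kit, the stem cell factor receptor gene, was at 35.03, 34.7 and 6.02 FPKM and Flt3 at 46, 42 and 6.25. For these 4 genes the sM-CSF value lay closer to the control than to the mM-CSF value. Among 15 compared genes that attenuate cytokine signals, Cbl, a ubiquitin ligase gene that acts on activated CD115, was the 1 called lower, at 36.1 FPKM in control macrophages, 12.5 with sM-CSF and 1.15 with mM-CSF. Its share of counts in sM-CSF was 2.89-fold below control (2.63 to 3.19). Of all compared genes 1.43% were called lower. Socs3 (-0.83), Socs4 (-0.68) and Dusp1 (-0.68) were short of 2-fold, and the adaptor genes Dok2 (0.64) and Dok3 (0.55) had positive differences.

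Few red pulp macrophage and iron genes were past 2-fold, where 0.366% of all compared genes were higher and 1.43% lower. Of 19 compared genes 1 was higher and 0 were lower, with a median of -0.16. The median was -0.35 among genes of at least 1000 bases and -0.30 in TPM. The higher gene was Trf (gene 22041), which encodes transferrin, at 114 FPKM in control macrophages, 257 with sM-CSF and 614 with mM-CSF, 2.25-fold higher in sM-CSF than in control (2.15 to 2.36). Spic, the transcription factor gene of red pulp macrophages, was at 114 and 88.2 FPKM in control and sM-CSF, Vcam1 at 204 and 156, and the iron exporter gene Slc40a1 at 164 and 147. Hmox1, the heme oxygenase gene, was at 354 and 247. The heavy chain ferritin gene Fth1 was at 1531 and 1663, and the hemoglobin scavenger receptor gene Cd163 at 13.96 and 18.3. The transferrin receptor gene Tfrc (-0.83), the repressor gene Bach1 (-0.87) and Cd5l (-0.74) were furthest below control. Tfrc is also in the erythroid list described below.

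Uptake and lipid genes had a few members past 2-fold, where 1.43% of all compared genes were lower. Of 16 compared scavenger and apoptotic cell receptor genes Lrp1 alone was lower, at 47.02 FPKM in control macrophages and 21.5 with sM-CSF, and it fell short with the length trend removed (-0.76). The list median was -0.50, with Mertk at -0.70, Scarb1 at -0.54 and Mfge8 at 0.59. Of 20 compared lipid genes 3 were lower (median -0.38), namely Fabp4, the apolipoprotein gene Apoc2 and Pparg, a lipid-sensing nuclear receptor gene. Apoc2 stood at 30.4 FPKM in control macrophages, 10.02 with sM-CSF and 5.62 with mM-CSF, and Pparg at 30.6, 13.8 and 19.3. Fabp4 and Cd36 (-0.88), known targets of the Pparg product, were also below control, and both are in the non-classical monocyte list as well. A link of these differences to Pparg was not tested. Apoe was at 396 and 390.4 FPKM in control and sM-CSF. Of 9 compared complement genes C3 and Itgam were lower (median 0.35). C3 stood at 15.5 FPKM in control macrophages and 5.40 with sM-CSF, and the C1q chain genes C1qa, C1qb and C1qc had differences of 0.52, 0.50 and 0.35. The mM-CSF library held 1129 FPKM of C1qa against 366 in sM-CSF and 254 in control.

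Inflammatory genes were lower in single members, where 1.43% of all compared genes were called lower. Of 16 NF-kB genes 2 were lower (median -0.13), the subunit gene Rel, at 38.6 FPKM in control macrophages and 16.3 with sM-CSF, and the cofactor gene Nfkbiz, at 62.04 and 27.4. Rela was at 63.01 and 67.3 FPKM and the inhibitor gene Nfkbia at 172 and 173, nearly level. Of 12 compared activation genes Il12b was lower (5.80 and 2.09 FPKM), and Il1b (-0.86), Il1a (-0.85) and Tnf (-0.81) were below control but short of 2-fold. Of 9 compared chemokine genes Ccl6 was lower (67.7 and 28.9 FPKM), with Ccl3 (-0.92) and Ccl4 (-0.94) next. The 16 compared Toll-like receptor genes held 0 calls and a median of -0.32, with the nucleic acid sensor genes Tlr13 (-0.99), Tlr7 (-0.88), Tlr8 (-0.85) and Tlr9 (-0.66) below control and their chaperone gene Unc93b1 at 0.33. Among immediate early and heat shock genes, a group known to respond to the handling of cells, 18 of 19 differences were negative. The share among all compared genes was 48.0%. In this list 2 genes were lower. These were the near-identical Hspa1a, at 92.3 and 43.1 FPKM, and Hspa1b, at 107 and 46.6. Fos (-0.74), Jun (-0.78) and Atf3 (-0.88) were below control as well, in the same library as the lower Nr4a1 and Klf4, and their part in those differences was not tested. Of 13 compared chemokine receptor genes Cx3cr1 was lower (median -0.01), and Cxcr5, a receptor gene of B cells, had a difference of 0.76. Of 16 compared checkpoint and costimulation genes the inhibitory receptor gene Lilrb4a was lower (66.9 and 32.4 FPKM; median -0.24). Of 22 compared type I interferon response genes Rsad2 was lower (14.7 and 6.44 FPKM) and the median was -0.12. The 10 compared alternative activation genes had no call and a median of 0.05, with the arginase gene Arg1 at 0.82 and 0.91 FPKM.

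**Figure D3:**
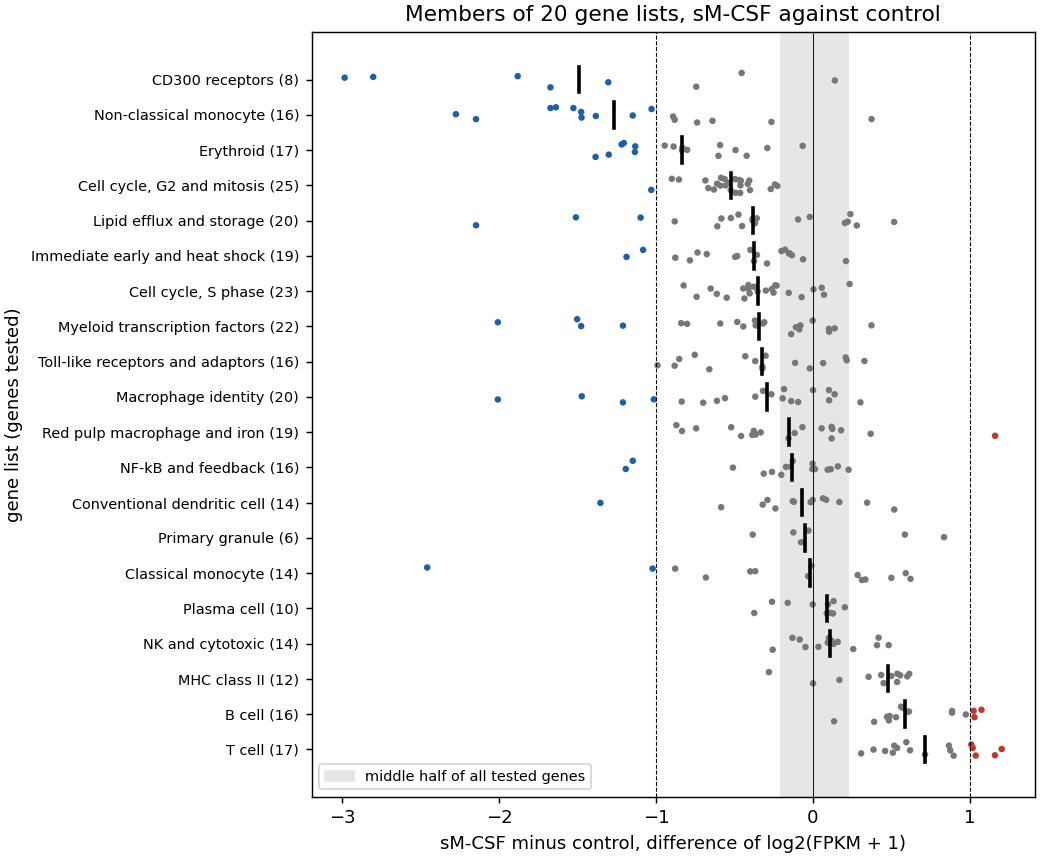
Difference of log2(FPKM + 1), sM-CSF minus control (x axis), for each compared member of 20 gene lists (rows, number of genes in parentheses), with a black bar at the list median, a gray band between the quartiles of all compared genes and dashed lines at 2-fold. Medians run from -1.49 for CD300 receptors to 0.71 for T cells.

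Genes of B and T lymphocytes were higher in the sM-CSF library. All 16 B cell genes had a positive difference, 3 were called higher and the median was 0.59. Among all compared genes 51.8% were positive and 0.366% were called higher. Pax5 (gene 18507), the B cell commitment factor gene, stood at 61.1 FPKM in control macrophages, 129.7 with sM-CSF and 123 with mM-CSF, 2.13-fold higher in sM-CSF than in control (1.94 to 2.34). The B cell receptor signalling gene Cd79a was at 468, 958 and 1117 FPKM, and Vpreb3 at 23.9, 49.7 and 51.2. The IgE receptor gene Fcer2a (0.89) and Ms4a1 (0.53), which encodes CD20, were short of 2-fold. In both the sM-CSF library was the highest of the 3, with 174 and 224 FPKM against 114 and 151 in mM-CSF. With the length trend removed, none of the B cell genes reached 2-fold (Pax5 0.85), but all 16 stayed positive. In TPM, 15 were positive and 0 were past 2-fold.

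All 17 compared T cell genes were positive too, with 5 called higher and a median of 0.71. The shares among all compared genes were 51.8% positive and 0.366% called higher. Lat (gene 16797), an adaptor gene of the T cell receptor, stood at 28.4 FPKM in control macrophages, 66.6 with sM-CSF and 90.2 with mM-CSF, 2.35-fold higher in sM-CSF than in control (2.06 to 2.69). Cd8b1, a coreceptor gene of cytotoxic T cells, was at 31.1, 70.8 and 92.3 FPKM. The CD3 genes Cd3d, Cd3e and Cd3g were at 39.1, 59.5 and 71.3 FPKM in sM-CSF and at 18.9, 28.8 and 34.2 in control. Smaller differences were seen in Cd4 and the costimulatory gene Cd28, with Cd4 at 62.8 and 82.4 FPKM and Cd28 at 8.01 and 10.2. With the length trend removed, 2 of the genes, Lat (1.01) and Cd8b1 (1.00), stayed past 2-fold. In TPM all were positive and 2 were past 2-fold.

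The summed FPKM of the B cell list went from 1934 in control to 3353 in sM-CSF, and that of the T cell list from 589 to 1035. No B cell gene was at 0 in either library, and of the T cell list Trbc2 was not listed. MHC class II genes, which B cells and dendritic cells express as well as macrophages, were higher alongside, short of the rule: 11 of 12 differences were positive in FPKM and 10 in TPM. The median was 0.48, with the invariant chain gene Cd74 at 6469.8 FPKM in control macrophages and 9903 with sM-CSF, H2-Ab1 at 2371 and 3440.2, and H2-Oa, a class II gene of B cells, at 148 and 225. Their transactivator gene Ciita was the exception, at 80.6 and 66.2 FPKM, against 16.4 in the mM-CSF library. The part of lymphocyte RNA in the class II differences, and in the lower share of monocyte genes, was not tested.

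Markers of other cell types had few calls. Among all compared genes 0.366% were called higher and 1.43% lower. The 14 NK cell genes had no call and a median of 0.11 (summed FPKM 1112 in control and 1138 in sM-CSF). The 10 plasma cell genes had none and a median of 0.09, with the immunoglobulin joining chain gene Jchain at 1008 and 1072 FPKM, against 3301 in the mM-CSF library. Of 14 compared dendritic cell genes Zfp366 was lower (24.6 and 9.02 FPKM) and the median was -0.07. Zbtb46, the defining factor gene of these cells, stood at 20.1 FPKM in control macrophages, 13.1 with sM-CSF and 1.46 with mM-CSF. Of 6 compared primary granule genes none was called, and the elastase gene Elane was at 54.5, 51.7 and 397 FPKM. Of 6 compared neutrophil genes, 15 in the list, none was called. Jchain and Elane thus lay close to control in sM-CSF and were several times higher in the mM-CSF library. The 9 plasmacytoid dendritic cell genes (median 0.23), 3 compared endothelial and stromal genes and 5 compared marginal zone macrophage genes (median -0.37) had no call. Progenitor genes (8 of 15 compared) had no call, and none of the 11 platelet genes reached 5 FPKM. Of 5 compared eosinophil, basophil and mast cell genes Prg2, a granule protein gene, was higher (11.9 and 25.6 FPKM) and Ear2, a ribonuclease gene, lower (232 and 115 FPKM).

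**Figure D4:**
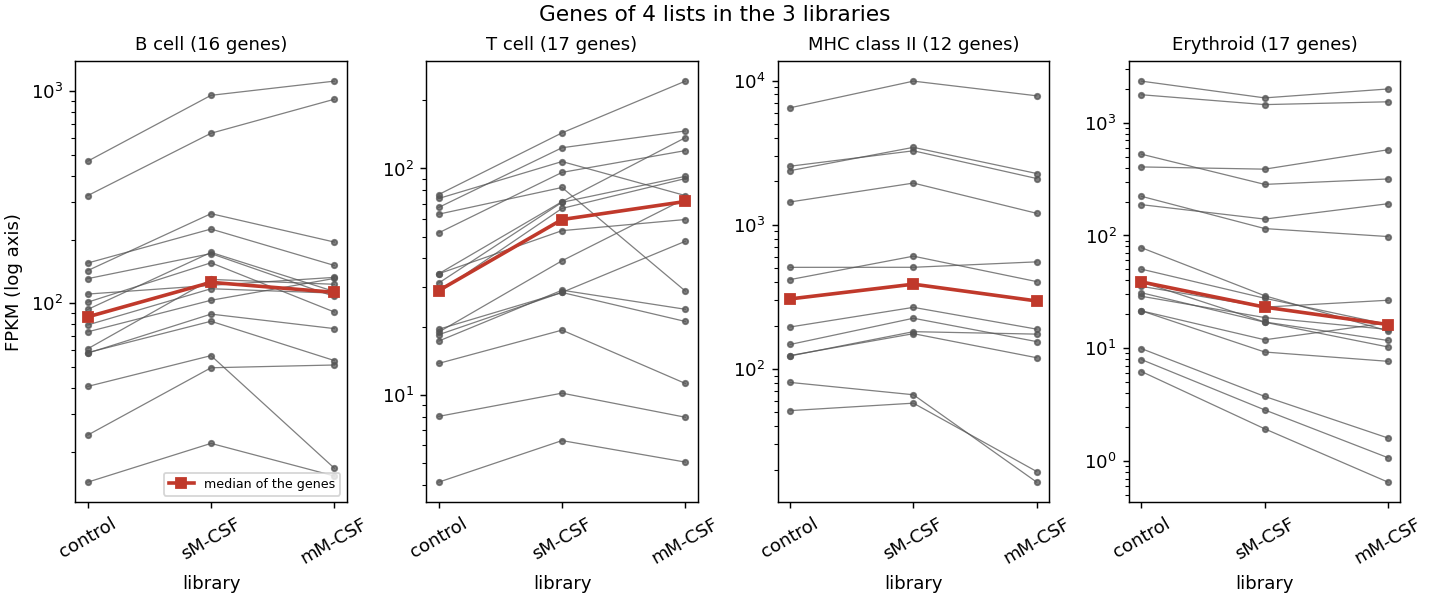
FPKM (log y axis) of the compared genes of 4 lists in the control, sM-CSF and mM-CSF libraries (x axis), with 1 gray line a gene and the median of the genes in red. The lists are B cell, T cell, MHC class II and erythroid. Every B and T cell gene lies higher in sM-CSF than in control and every erythroid gene lower, while 11 of 12 MHC class II genes lie higher.

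Erythroid genes were lower. All 17 compared genes had a negative difference under each of the 5 scalings and 6 were called lower, with a median of -0.83. Among all compared genes 48.0% were negative and 1.43% lower in FPKM. Slc4a1 (gene 20533), which encodes the anion exchanger band 3 of red cells, stood at 77.9 FPKM in control macrophages, 29.2 with sM-CSF and 14.2 with mM-CSF, 2.66-fold lower in sM-CSF than in control (2.49 to 2.85). Rhag, a gene of the Rh complex, was at 21.5, 9.26 and 7.66 FPKM. The membrane skeleton genes Sptb (-1.22) and Epb42 (-1.21) were also called lower. Globin genes differed less: Hba-a1 was at 2336 and 1659 FPKM, Hbb-bs at 1769 and 1446 and Hba-a2 at 405 and 387, and reads may be divided between such near-identical copies. The summed FPKM of the list was 5775 in control and 4194 in sM-CSF.

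Cell cycle genes were below control together, at smaller sizes. All 25 genes of G2 and mitosis had a negative difference (median -0.52) under each of the 5 scalings. Of all compared genes 48.0% were negative and 1.43% lower in FPKM. The proliferation marker gene Mki67 was the 1 called lower, at 69.2 FPKM in control macrophages, 33.4 with sM-CSF and 29.1 with mM-CSF. With the length trend removed Mki67 fell short of 2-fold (-0.70). The mitotic kinase gene Plk1 was at 25.5, 13.7 and 22.5 FPKM and the cyclin gene Ccnb1 at 22.98, 14.1 and 19.4, with sM-CSF the lowest of the 3 in both. Of 23 S phase genes 19 were negative (median -0.35) and none was called. Rrm2, a subunit gene of ribonucleotide reductase, was at 64.3 and 35.9 FPKM, while Pcna was at 189 and 169.9. Cycling cells of the erythroid lineage express both groups of genes, and the part of erythroid cells in the cell cycle differences was not tested.

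Listed ribosomal protein genes were above control. Each of 40 large subunit genes and 30 small subunit genes had a positive difference, with medians of 0.45 and 0.49, none past 2-fold. Among all compared genes 51.8% were positive. Rps27rt, a ribosomal protein gene copy outside the lists, was called lower, at 27.05 FPKM in control and listed at 0 in both M-CSF libraries. Genes with symbols of Rpl or Rps followed directly by a digit, a set taken by name only, together took 4.86% of counts in control and 6.67% in sM-CSF. Ribosomal protein genes are short, and the difference followed gene length over the whole library. Across the 9551 compared genes, the difference and the length had a Spearman's rho of -0.45, a description across genes that are not independent replicates. In 5 equal groups by length, the median difference was 0.23 for the shortest genes (up to 1503 bases) and -0.21 for the longest (at least 4465 bases). The genes called higher were 1208 bases long at the median, those called lower 3025. With the running median over 20 length bins subtracted, the ribosomal medians were 0.22 and 0.23, still positive for all 70 genes. Nuclear respiratory chain genes, also short, went from a median of 0.21 to -0.03, and chromatin enzyme genes, which are long, from -0.27 to -0.01. The medians of the non-classical monocyte (-1.16), B cell (0.62), T cell (0.67) and erythroid (-0.89) lists stayed on the same side of 0.

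**Figure D5:**
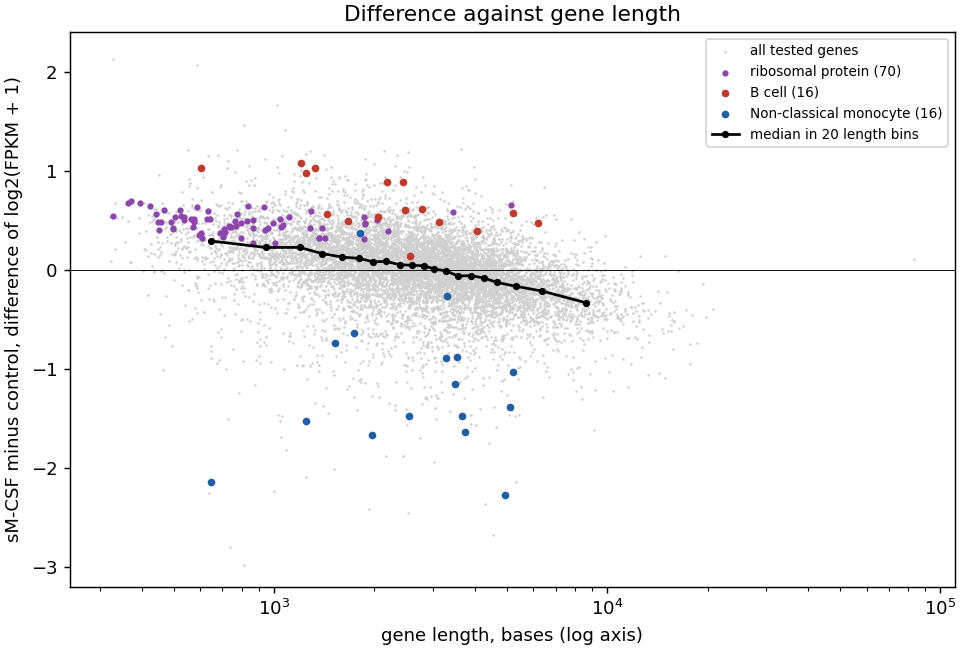
Difference of log2(FPKM + 1), sM-CSF minus control (y axis), against gene length in bases (log x axis), with 1 point a gene, the median of 20 length bins as a black line and 3 gene groups in color. The black line falls from left to right, the listed ribosomal protein genes lie at the short end above 0, most non-classical monocyte genes lie below the line and the B cell genes above it. Pcsk1n and Rps27rt lie outside the y axis.

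Most metabolic genes lay near control. Among all compared genes 1.8% were called in either direction. Of 18 glycolysis genes the lactate exporter gene Slc16a3 was lower, at 16.8 FPKM in control macrophages, 5.70 with sM-CSF and 6.55 with mM-CSF, and the median was -0.06, with Gapdh at 921 and 868 in control and sM-CSF. The 27 compared lysosome genes had no call (median -0.13), with Lamp2 at -0.66 and the cathepsin gene Ctsd at -0.08. The 18 endoplasmic reticulum folding genes (median 0.04) and the 15 MHC class I genes (0.19) had none either. Among 14 compared BCL2 family genes no gene was called, with Mcl1 at 215 and 228 FPKM.

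The largest differences included genes outside the lists. Leaving out predicted, ribosomal protein, histone and small RNA genes and those under 10 FPKM, the 15 lowest were Cd300ld5, Cd300ld3, Clec4e, Smpdl3b, Tsix, Ace, Nupr1, Ms4a4a, Fabp4, Cebpb, Cd300ld, Zfyve9, Gdf15, Arhgef10l and Trem3. Smpdl3b, a phosphodiesterase gene, stood at 32.6 FPKM in control macrophages, 5.29 with sM-CSF and 3.02 with mM-CSF, 6.15-fold lower in sM-CSF than in control (4.92 to 7.76). The stress-induced genes Nupr1 and Gdf15 were at 31.6, 5.83 and 5.68 and at 14.8, 3.46 and 2.94 FPKM. Ms4a4a, a membrane protein gene of myeloid cells, was at 33.5, 6.32 and 3.25. In each of these both M-CSF libraries were below control. Tsix was at 24.5, 3.93 and 1.60 FPKM and its antisense partner Xist, the X inactivation RNA, at 120.0, 61.4 and 25.4. No source used here says whether counting used the strand, and the pair cannot be told apart. The Y-linked gene Ddx3y was at 0.02 FPKM in sM-CSF and listed at 0 in control.

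The 15 highest were Pcsk1n, Dapl1, Cbr2, Ly6c1, Sap25, Nyx, Ly6k, Lat, Pmel, Lef1, Trf, Cd8b1, Bend5, Cpne8 and Pax5. Dapl1, a gene expressed in resting T cells, stood at 6.27 FPKM in control macrophages, 29.6 with sM-CSF and 41.3 with mM-CSF, 4.73-fold higher in sM-CSF than in control (3.21 to 7.17). Lef1, a T cell transcription factor gene, was at 11.4, 27.4 and 18.2 FPKM. Lat, Cd8b1 and Pax5 are members of the T and B cell lists described above. Cbr2, a carbonyl reductase gene, had 3.19, 12.3 and 44.01 FPKM, and like Trf it was highest in the mM-CSF library. Ly6c1, whose sequence is close to Ly6c2, was at 4.49, 14.2 and 17.6 FPKM, with an estimated count that was not whole.

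Pcsk1n (gene 30052), whose product inhibits a neuroendocrine prohormone convertase, had the highest difference of all compared genes. Its value was 0 in control macrophages, 85.8 FPKM with sM-CSF and 0.11 FPKM with mM-CSF. With the control library set to a floor of 3 counts, its share of counts was 575-fold higher in sM-CSF (lower limit of the counting interval 196). The genes on either side of it on the X chromosome did not share this: Timm17b was at 21.4 and 24.5 FPKM in control and sM-CSF, Pqbp1 at 47.7 and 71.1 and Hdac6 at 6.13 and 7.65. Eras, whose annotated span overlaps the end of Pcsk1n, was listed at 0 in the control and at 0.53 FPKM in sM-CSF. With 1 library it cannot be told whether the Pcsk1n signal belongs to the condition or to this sample.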

How the data were processed

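RNA from sorted splenic macrophages was sequenced in 3 libraries, 1 per group, from 1 ug of total RNA on a BGISEQ-500 per the labels' protocols. Bowtie2 (version 2.2.5) and RSEM are named in the submitters' processing notes, and the genome build and annotation are not given in the sources used here. The deposited tables give, for every NCBI gene ID, the length and FPKM together with an expected count estimated by the authors, per the file headers. Of these, 75.7% and 75.9% of the control and sM-CSF counts were whole within 0.005. The authors had scaled FPKM to length and mapped fragments. A count of 3 is 0.33 CPM in control and 0.335 CPM in sM-CSF.

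Of 17615 genes all but 54 received a symbol from a GRCm38.p6 RefSeq table. A gene's length was that in its higher library. Counts were rounded for intervals. Of 785 genes in 50 lists 769 were in the tables. Members and lists were chosen with earlier results of these data known. Named genes were the 15 highest and 15 lowest at 10 FPKM or more, list members past 2-fold, up to 4 members with the largest difference in each list at 5 FPKM or more, any member of 10 main lists, the sort and sex-linked genes, and the 3 genes nearest the rule on each side. Neighbours of Pcsk1n, Lyz1, Rps27rt, the lists plotted, the promoters and motifs, the families in the closing section, and list members named for being near control were chosen after their values were seen. Alternatives covered the pseudocount, minimum, length, scaling (edgeR 4.0.16 factors) and size rule. The calls were also run on simulated counts that held counting error only. That run had no spread between mice and no length trend, so it does not check the calls against these. Python 3.11.15, scipy 1.17.1 and R 4.3.3 were used. Some list members are not reported here.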

Additional observations from a re-analysis of the deposited data

How the results depend on the processing

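The count of higher genes (35 as reported) was 58 with a pseudocount of 0.1, 12 with 5, 64 with a minimum of 1 FPKM, 76 with no minimum length, 23 from 1000 bases, 16 with the length trend removed (14 of them also called with it), and 11 where the counting interval lay wholly past 2-fold. The count of lower genes (137) was 55 with a pseudocount of 5 and 307 in TPM, which moved the median of all genes to -0.13 and the share of calls that were higher from 20.3% to 9.71%. That share was 32.5% with no minimum length and 9.64% with the length trend removed, where 150 genes were lower, 113 of them also called with it. A 1.5-fold rule gave 345 higher and 537 lower genes, and a 3-fold rule 4 and 25. The median of macrophage identity genes was -0.47 and that of MHC class II genes 0.30 with the length trend removed. The complement median turned from 0.35 to -0.29 with a minimum of 1 FPKM and -0.24 in TPM, and that of eosinophil, basophil and mast cell genes from -0.50 to 0.020 with a minimum of 10 FPKM. These minimum and TPM settings compare a different number of genes. On the 9 complement genes compared in FPKM, the median in TPM was 0.20. The causes of the other shifts were not tested. Of 85 described genes past 2-fold, 67 stayed past it with the length trend removed, 76 in TPM, 83 with TMM scaling, 49 with a pseudocount of 5 and 46 under all 7 settings tried. Cd3d, Cd3e, Cd3g, Cd79a, Pax5, Vpreb3, Prg2, Sit1 and Cpne8 fell short both with the length trend removed and in TPM, and Sptb, Ly6k and Myh10 with the trend removed. Of 49 list medians, 17 stayed within 0.1 or within 1.5 times of their value under all 11 settings, limits chosen after the values were seen. No paired analysis was possible because each group has 1 library, and no library could be left out for the same reason.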

Other observations

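The gene families below, taken whole after the values were seen, had 1 or 2 members called lower, and the Ly6 family also had 2 called higher. Of all compared genes 1.43% were lower and 0.366% higher. The Schlafen family, taken in the same way, had 5 genes compared and 0 called. Of 9 compared MS4A membrane protein genes, Ms4a6d stood at 13.4 FPKM in control macrophages, 4.53 with sM-CSF and 6.50 with mM-CSF and Ms4a4a was lower as described, while Ms4a6b was at 69.3, 75.1 and 52.03. Of 4 compared TREM genes, which encode myeloid triggering receptors, Trem1 stood at 6.37 FPKM in control macrophages and 0.92 with sM-CSF and Trem3 at 11.98 and 3.04, and Treml2, a gene also expressed in B cells, was at 15.6 and 23.9. In the SIRP family Sirpb1c was at 31.4 and 10.9 FPKM and Sirpa at 222 and 185. Among 7 interferon-inducible PYHIN genes, Ifi204 (-1.37) and Ifi207 (-1.15) were lower and Mndal (0.26) and Ifi209 (0.20) had small positive differences. These copies are similar in sequence, and their counts may share reads.

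Sphingosine-1-phosphate receptor genes parted by receptor. S1pr5, known for its role in the exit of non-classical monocytes and NK cells into blood, stood at 26.5 FPKM in control macrophages, 8.29 with sM-CSF and 5.25 with mM-CSF. S1pr1, the main receptor of lymphocyte egress, was at 41.04, 70.4 and 37.6 FPKM, and S1pr4 at 28.9, 47.6 and 64.4. Of 9 compared KLF factor genes, Klf10 (-1.02) was lower beside Klf4, and Klf2, a factor gene shared by monocytes and resting lymphocytes, was at 0.37. In the Ly6 family Ly6i was lower (8.42 and 3.21 FPKM) and Ly6k higher (4.41 and 11.5 FPKM), while Ly6d, a gene of B lineage cells, differed by 0.85.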
